A study of Mus musculus with 4 samples.

Results

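H3K27ac, the acetylation of lysine 27 on histone H3 found at active promoters and enhancers, was mapped in isolated mouse liver sinusoidal endothelial cells (LSECs). The genes examined were the 10 named members of the interleukin-6 (IL-6) receptor and STAT3 axis, out of 21883 protein-coding genes of the GRCm38 gene table: *Il6*, *Il6ra*, *Il6st*, *Lifr*, *Osmr*, *Jak1*, *Jak2*, *Stat3*, *Socs3*, and *Il1r1*. A peak belonged to a gene when it lay in the gene body or in the 10 kb on either side of it. It was split further by whether it lay within 1 kb of an end of that gene or farther away, called distal. All 10 genes were found in the table.

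The series held 4 samples, H3K27ac libraries of replicates 2 and 3 and an input library with the same number for each. The samples formed 1 condition, so the study contained no contrast between groups for these genes. The labels gave the cell type and the antibody but no genotype, strain, sex, age, or treatment of the mice, and did not say whether the replicates came from separate animals. The study's methods described LSECs purified from digested liver with anti-CD146 beads and did not say which of its mouse lines gave the cells for these libraries. The isolation protocol also plated the cells and cultured them for 4 hours. Whether the cells for these libraries were cultured before fixation was not stated.

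IL-6 binds its receptor α chain, encoded by *Il6ra*, and the complex recruits gp130, encoded by *Il6st*. The receptors for leukemia inhibitory factor and oncostatin M, *Lifr* and *Osmr*, signal through the same gp130 chain. Janus kinases attached to gp130 phosphorylate STAT3, which enters the nucleus and switches on target genes, among them *Socs3*, whose product binds gp130 and the kinases and ends the signal. *Il1r1* encodes the receptor for interleukin-1, which acts through MyD88 and NF-κB and is a classic inducer of *Il6*. LSECs line the liver sinusoids and meet these cytokines from blood and from neighboring cells.

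The list of replicate 2 held 26975 peaks and that of replicate 3 held 64498, which was 2.39 times as many. Fold enrichment, the strength of a peak over the background estimated by the peak caller, is therefore given for each library on its own and with its percentile in the list of that library. Read numbers were not given for either library, and their part in this difference was not tested. Of 15 LSEC marker genes, 11 had peaks of both libraries, overlapping each other, 1 kb or less from a gene end, against 1 of 34 markers of lymphocytes, cholangiocytes, Kupffer cells, stellate cells, and hepatocytes. By listed starts, 5 of 9 LSEC markers had such a region, beside 45.9% of protein-coding genes with a listed start, and none of the other markers with a listed start did. Replicate 2 alone had a start peak at 4 of the 9 LSEC markers and replicate 3 at all 9. The 5 for both libraries exceeds the 4 through *Fcgr2b*, where the merged region reached nearer to the start than its replicate 2 peak. At gene ends, where all genes gave 44.1%, the 1 marker of another cell type was *Cd79a*. No peak of replicate 3 lay in the gene body or within 10 kb at 20 of the 34 markers of other types, beside 30.1% of all protein-coding genes. Peak strength in a cell population mixes the share of cells with the mark and the level per cell, which cannot be told apart here.

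Over the 10 genes, replicate 2 had 42 peaks and replicate 3 had 123. Each of the 42 peaks of replicate 2 overlapped a peak of replicate 3 by at least 1 bp. Merging overlapping peaks gave 123 regions, of which 41 held peaks of both libraries, 82 held peaks of replicate 3 only, and none held a peak of replicate 2 only. Regions of replicate 2 only were rare everywhere. Over the whole lists there were 226, beside 24199 of both libraries and 40204 of replicate 3 only. At a gene end, meaning 1 kb or less from it, 7 of 10 genes had a region of both libraries, where 44.1% of all protein-coding genes had one. These were *Il6ra*, *Il6st*, *Osmr*, *Jak1*, *Jak2*, *Stat3*, and *Socs3*. Taken alone, replicate 2 gave 7 genes beside 43.4% of all genes, and replicate 3 gave 8 beside 53.9%. The extra gene was *Il1r1*, through weak peaks at the edge of its annotated body with fold enrichments of 5.86 and 5.42. A distal region of both libraries was present in 9 of 10 genes beside 39.3% of all genes, and *Il6* was the exception. The same 9 genes had a distal peak in each library alone, where replicate 2 gave 40.1% of all genes and replicate 3 gave 60.6%. Counting any place in the window, 9 of 10 genes had a region of both libraries beside 58.5% of all genes, and 9 of 10 had a peak of replicate 3 beside 69.9%. None of these shares was adjusted for gene length, whose median was 57.0 kb for the members and 17.2 kb for all protein-coding genes. Without the 10-kb flanks, 5 members had a distal region of both libraries.

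The annotated bodies of *Lifr* and *Il1r1* begin upstream of the transcript starts that RefSeq lists for them, so the regions at those starts counted as distal under the rule on gene ends. Transcript starts were therefore also used, a choice made after the positions of the peaks were seen. Of the 10 genes, 9 had a region of both libraries within 1 kb of a listed start, beside 45.9% of the 17491 protein-coding genes with a listed start. Replicate 2 alone gave 9 genes beside 45.7% and replicate 3 alone gave 9 beside 54.4%. In each library the peaks of these 9 genes lay over the start itself. Their summits stood close to it: from -189 to 75 bp relative to the start in replicate 2 and from -168 to -14 bp in replicate 3, where negative values are upstream. Between the libraries, the summit at the same start differed by 0 to 89 bp, with a median of 11 bp. At *Stat3* both summits fell on the same base, at -56 bp.

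**Figure D1:**
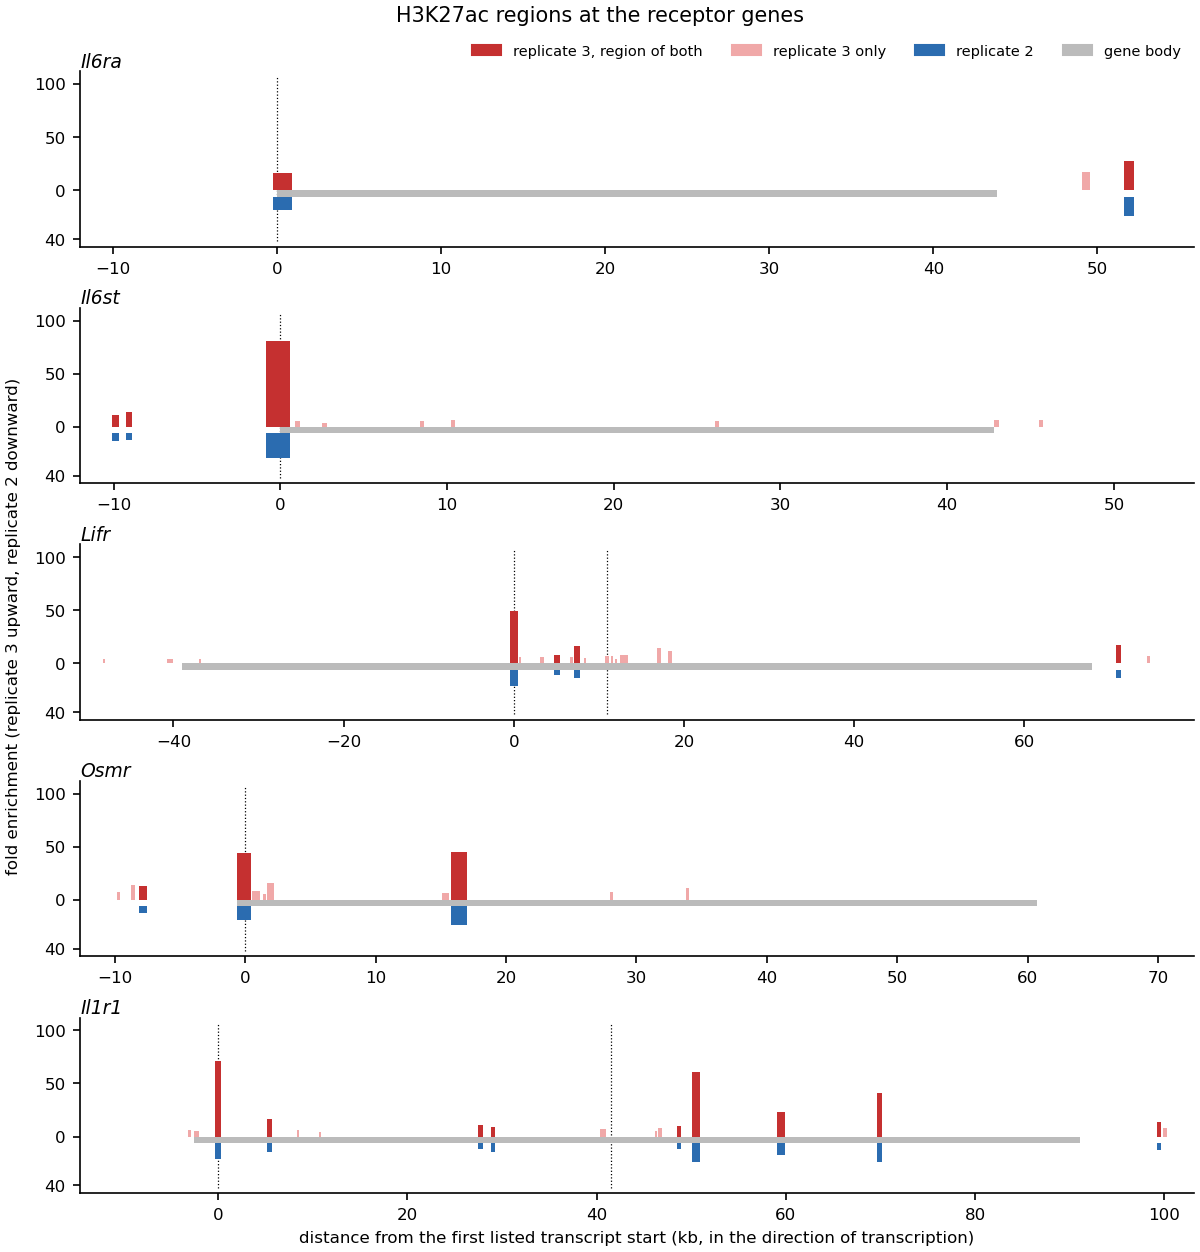
Map of H3K27ac regions at *Il6ra*, *Il6st*, *Lifr*, *Osmr*, and *Il1r1*; the x axis is the distance from the first listed transcript start in kb along the direction of transcription, the y axis is fold enrichment, with replicate 3 drawn upward and replicate 2 downward from the gray gene body, dotted lines mark listed starts, pale bars are regions of replicate 3 only, and narrow regions are widened to stay visible. Each gene has bars of both libraries at its first start, and *Il1r1* has 9 regions of both libraries along its window.

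*Il6*, the cytokine gene itself, was the 1 member with no peak of either library in its 6.86-kb body or in the 10 kb on either side. An empty window in the list of replicate 3 was found for 30.1% of protein-coding genes. The closest peak of replicate 3 lay 34.4 kb downstream of the *Il6* start with a fold enrichment of 4.54, at the 10.1 percentile of its list. That of replicate 2 lay 101.4 kb downstream with a fold enrichment of 5.11, at the 4.57 percentile. Both were weak and lay past the near end of the neighboring gene *Tyms*, 18.6 kb from the end of *Il6* with no region in between. On the other side, the 227 kb up to *Dnajb6* held 5 regions, 3 of both libraries, and the strongest peaks there reached 24.8 in replicate 3 and 9.76 in replicate 2. The list shows where the caller passed its threshold, so acetylation below that threshold at *Il6* was not detectable from these files. The lncRNA gene *A230098N10Rik* overlaps the whole *Il6* gene.

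The *Il6* promoter is shown because it is the unmarked start of the set, and the same span from 250 bases before to 50 after the start is used for each sequence below. Sequences are those of RefSeq on GRCm38.p6, written 5′ to 3′ along the transcribed strand, with matches to any of 8 short motifs in capitals. The *Il6* window is chr5:30012864-30013163 on the plus strand.
*Il6*: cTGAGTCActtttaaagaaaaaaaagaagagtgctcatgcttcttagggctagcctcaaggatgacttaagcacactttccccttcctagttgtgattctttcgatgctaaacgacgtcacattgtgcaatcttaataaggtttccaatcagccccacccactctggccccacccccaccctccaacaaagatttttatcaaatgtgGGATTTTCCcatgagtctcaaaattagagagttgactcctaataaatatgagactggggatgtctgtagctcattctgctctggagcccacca
The capitals mark a match to the AP-1 motif TGANTCA beginning at position -249 from the start and to the NF-κB motif GGNNTTTCC at position -43. On both strands and in the same span, 7.81% of 32851 mouse promoters held the former and 5.82% the latter. A match describes letters and does not show binding. The window was 44.0% G and C and held 3 CpG dinucleotides. Among promoter windows of protein-coding genes, those with a region of both libraries within 1 kb had a median of 23 CpG, and those without had a median of 5. Of the windows without such a region, 41.7% had at most 3 CpG, compared with 1.96% of those with one.

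*Il6ra*, the α chain that binds IL-6, had the weakest start region of the 9 marked genes in both libraries. Fold enrichment was 12.9 in replicate 2, at the 64.7 percentile of the list, and 16.2 in replicate 3, at the 69.8 percentile. Among peaks at all listed gene starts, these values ranked at the 36.1 and 19.1 percentiles. In replicate 2 the region was split into 3 peaks, and in replicate 3 it was 1 peak of 1123 bp. The 43.9-kb gene body held no other region. The stronger region of the locus lay past the 3′ end, 51.9 kb from the start, between *Il6ra* and *She*, at chr3:89860969-89861593. Its fold enrichment was 18.3 in replicate 2 and 27.7 in replicate 3, above the *Il6ra* start in both libraries. A replicate 3-only region stood beside it at 17.3.

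*Il6st*, the shared gp130 chain, had the strongest start region among the 4 receptor genes of the IL-6 family in both libraries. Fold enrichment was 23.0 in replicate 2 (87.6 percentile of the list) and 80.8 in replicate 3 (97.2 percentile). The gene body beyond the start held no peak of replicate 2. The other regions of both libraries were a pair of weak ones upstream, at -9.83 and -9.09 kb from the start, with 7.32 and 6.78 in replicate 2 and 11.0 and 13.7 in replicate 3. The 7 regions found in replicate 3 alone ranged from 3.91 to 6.51. The promoter is shown as the acetylated start of the gp130 chain, which the receptors for IL-6, leukemia inhibitory factor, and oncostatin M share. Its window is chr13:112463820-112464119 on the plus strand.
*Il6st*: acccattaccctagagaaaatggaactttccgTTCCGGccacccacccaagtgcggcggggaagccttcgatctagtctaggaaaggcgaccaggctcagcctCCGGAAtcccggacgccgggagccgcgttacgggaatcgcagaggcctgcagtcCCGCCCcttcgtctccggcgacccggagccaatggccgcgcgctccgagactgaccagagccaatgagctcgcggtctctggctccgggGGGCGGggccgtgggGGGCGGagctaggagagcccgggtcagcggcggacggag
Capitals mark the ETS motif CCGGAA, at positions -218 and -147, and the GC box GGGCGG, at positions -93, -4, and 12. The ETS motif was present in 14.9% of all promoters and the GC box in 35.7%. The window held 33 CpG and was 68.3% G and C.

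*Lifr*, the receptor chain for leukemia inhibitory factor, has 2 listed starts, and they differed. At the first, fold enrichment was 15.6 in replicate 2 (73.2 percentile) and 49.5 in replicate 3 (91.4 percentile). Ranked only among peaks at listed gene starts, these values stood at the 47.1 and 59.6 percentiles. At the second, replicate 3 had a weak peak of 6.77 (36.0 percentile), and the nearest peak of replicate 2 was 3.35 kb away. The sequences differed as well, and both are shown for that reason, the first at chr15:7129322-7129621 and the second at chr15:7140292-7140591, on the plus strand.
*Lifr*, first start: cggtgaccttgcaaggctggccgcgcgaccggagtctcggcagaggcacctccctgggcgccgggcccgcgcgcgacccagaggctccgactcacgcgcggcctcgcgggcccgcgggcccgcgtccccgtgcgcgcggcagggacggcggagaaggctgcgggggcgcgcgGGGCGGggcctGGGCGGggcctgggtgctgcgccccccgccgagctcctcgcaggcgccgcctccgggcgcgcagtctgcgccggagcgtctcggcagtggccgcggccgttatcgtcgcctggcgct
*Lifr*, second start: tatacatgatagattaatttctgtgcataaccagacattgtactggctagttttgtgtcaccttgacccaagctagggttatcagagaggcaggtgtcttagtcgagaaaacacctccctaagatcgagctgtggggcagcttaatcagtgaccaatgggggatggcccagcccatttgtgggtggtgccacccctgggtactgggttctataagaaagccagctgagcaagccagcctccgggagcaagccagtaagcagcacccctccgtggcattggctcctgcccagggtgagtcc
The first window was 81.3% G and C with 53 CpG and a pair of GC boxes in capitals, and the second was 53.3% G and C with 4 CpG and matched none of the 8 motifs. Beyond the starts, *Lifr* had 3 regions of both libraries. They lay 5.05, 7.53, and 70.9 kb from the first start, the last of them past the 3′ end. Their fold enrichments were 5.11, 7.46, and 7.93 in replicate 2 and 7.83, 16.7, and 17.6 in replicate 3. Away from the starts, 10 regions were found in replicate 3 alone, at 3.81 to 14.3.

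*Osmr*, the oncostatin M receptor, had a start region of 13.1 in replicate 2 (65.5 percentile) and 44.3 in replicate 3 (89.7 percentile), the lowest but one of the 9 in each library. Against peaks at listed gene starts only, it stood at the 37.1 percentile in replicate 2 and the 54.2 in replicate 3. A region in the gene body, 16.6 kb downstream of the start at chr15:6857292-6858510, was at least as strong. Its fold enrichment was 17.4 in replicate 2 and 45.1 in replicate 3. With *Il6ra*, *Osmr* was one of 2 genes whose strongest distal region exceeded the start in both libraries, and in replicate 3 at *Osmr* the gap was under 1 unit. The third region of both libraries lay upstream, at -7.66 kb from the start, with 6.71 in replicate 2 and 13.0 in replicate 3. *Osmr* and *Lifr* are neighbors on chromosome 15, and the 216 kb between their bodies held 20 regions. Of these, 3 were of both libraries, with at most 6.78 in replicate 2, and the strongest peak of replicate 3 there was 30.6.

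*Il1r1*, the interleukin-1 receptor, had a start region of 15.1 in replicate 2 (72.0 percentile) and 71.5 in replicate 3 (96.0 percentile). Compared with peaks at listed gene starts only, the percentiles were 45.4 and 77.8. The start was followed by 7 further regions of both libraries along the 93.7-kb body and 1 past the 3′ end. The strongest of these, 50.4 kb from the start at chr1:40275136-40275996, reached 18.4 in replicate 2 and 61.0 in replicate 3. Another at 69.9 kb reached 18.3 and 40.7. In replicate 2 both exceeded the start, and in replicate 3 neither did. The region past the 3′ end, with 6.78 in replicate 2 and 14.0 in replicate 3, lay at the start of the neighboring receptor gene *Il1rl2*, and position alone does not assign it to either gene.

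*Il1r1* also has 2 listed starts, shown because the acetylated one is the one poor in CpG. The first is chr1:40224830-40225129 and the second is chr1:40266336-40266635, on the plus strand.
*Il1r1*, first start: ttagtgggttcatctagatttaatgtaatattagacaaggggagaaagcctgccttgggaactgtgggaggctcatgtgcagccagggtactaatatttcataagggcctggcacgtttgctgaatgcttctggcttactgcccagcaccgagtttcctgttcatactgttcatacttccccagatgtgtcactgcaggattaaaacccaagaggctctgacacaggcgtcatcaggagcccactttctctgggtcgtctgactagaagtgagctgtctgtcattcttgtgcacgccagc
*Il1r1*, second start: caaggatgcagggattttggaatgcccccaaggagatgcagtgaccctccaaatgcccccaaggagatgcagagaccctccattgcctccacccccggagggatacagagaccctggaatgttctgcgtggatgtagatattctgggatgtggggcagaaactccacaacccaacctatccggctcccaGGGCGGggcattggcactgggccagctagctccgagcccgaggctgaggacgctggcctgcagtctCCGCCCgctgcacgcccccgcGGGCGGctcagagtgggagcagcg
The first window was 49.3% G and C with 5 CpG and no match to the 8 motifs. The second was 63.3% G and C with 14 CpG and 3 GC boxes in capitals. At the second start no peak lay over the start itself. The closest peak of replicate 3, with a fold enrichment of 7.41, was 0.515 kb away, and the closest of replicate 2 was 7.16 kb away. Of all protein-coding promoter windows with a region of both libraries within 1 kb, 4.24% held 5 or fewer CpG. The other 8 acetylated first starts of the set held 15 to 53.

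**Figure D2:**
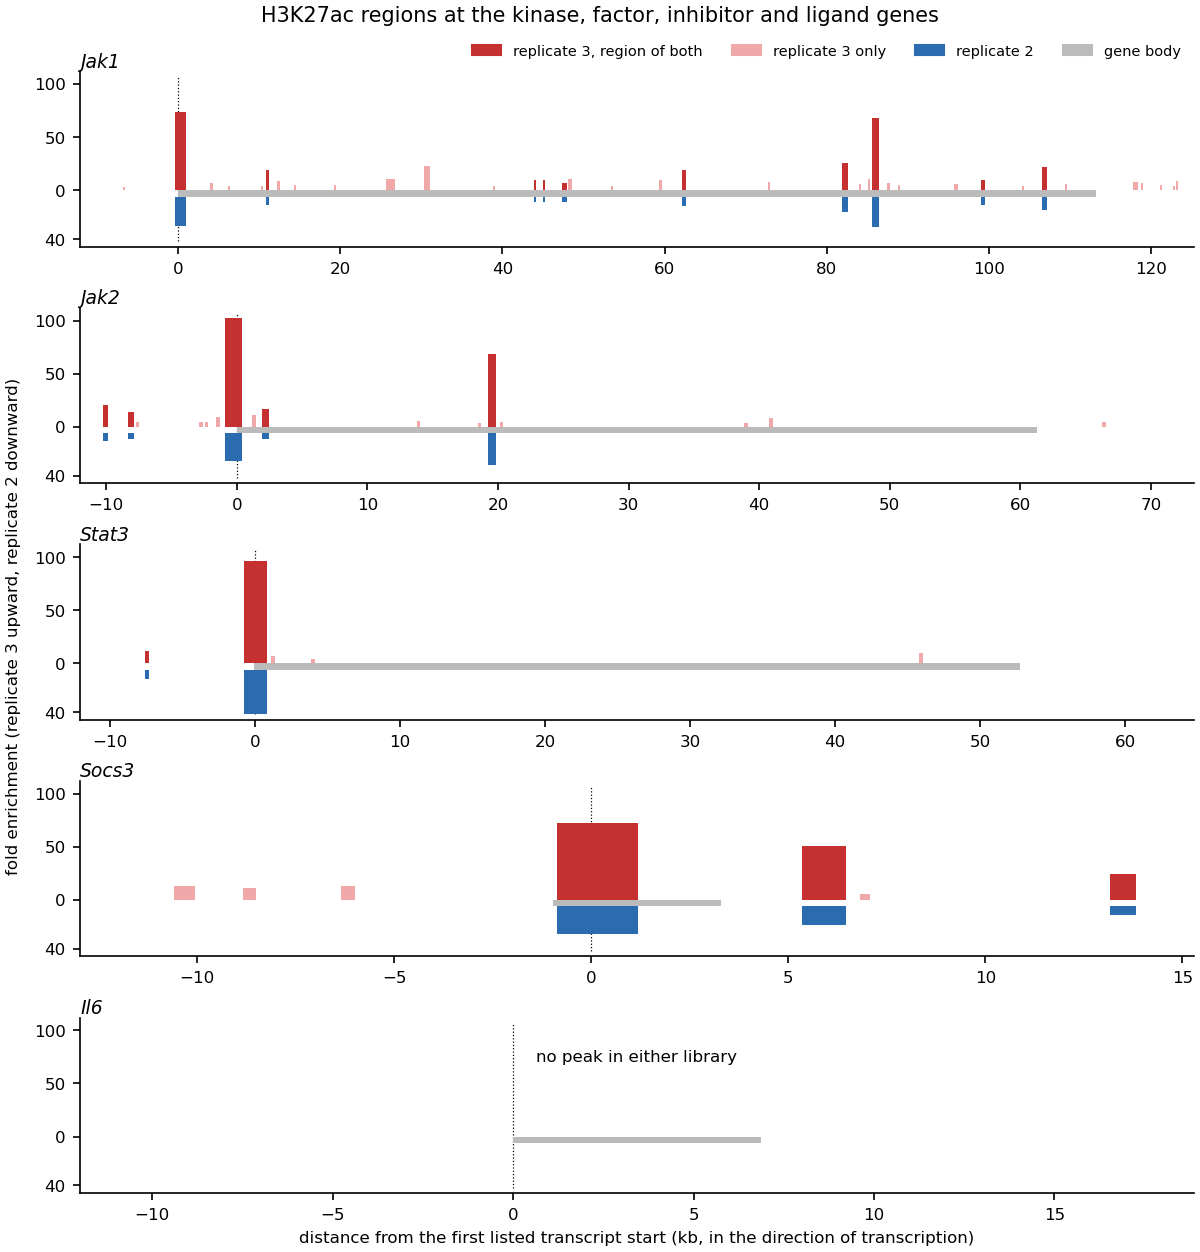
Map of H3K27ac regions at *Jak1*, *Jak2*, *Stat3*, *Socs3*, and *Il6*, with distance from the listed transcript start in kb on the x axis and fold enrichment on the y axis, replicate 3 upward and replicate 2 downward from the gray gene body, pale bars being regions of replicate 3 only and narrow regions being widened to stay visible. *Jak1* and *Jak2* carry strong regions inside the gene body, at 85.9 and 19.6 kb, *Stat3* has its strong region at the start, and the window of *Il6* is empty.

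*Jak1*, a kinase bound to gp130, had the most regions of the 10 genes, 36 in all, of which 10 were of both libraries. That count stood at the 99.5 percentile of protein-coding genes. The gene is also long, 113 kb, and per 10 kb of window its count stood at the 89.5 percentile. Its start region reached 27.5 in replicate 2 (92.7 percentile) and 73.2 in replicate 3 (96.3 percentile). A region 85.9 kb into the gene, at chr4:101178751-101179673, was of like strength, with 28.8 in replicate 2 and 67.6 in replicate 3. The other 8 distal regions of both libraries ranged in replicate 3 from 7.16 to 26.0. *Jak1* also held the strongest region of the set that only replicate 3 had, at 22.8, 30.6 kb from the start. The regions past its 3′ end, all of replicate 3 only, lie inside the neighboring gene *Raver2*, and position alone does not assign them to either gene.

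*Jak2*, the other kinase among the members, had the strongest start region of the set in replicate 3, 101.9 (98.8 percentile), and 26.4 in replicate 2 (91.8 percentile). Its distal region 19.6 kb downstream, at chr19:29271056-29271687, reached 29.8 in replicate 2, which exceeded the start, and 68.8 in replicate 3, which did not. These were the highest distal values of the set in both libraries. The 3 remaining regions of both libraries were weaker, at 5.42 to 7.20 in replicate 2 and 13.7 to 20.4 in replicate 3. Those upstream of the start lie inside the lncRNA gene *Gm41829*, so they cannot be given to *Jak2* alone.

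*Stat3*, the transcription factor phosphorylated by the kinases at gp130, had the strongest start region of the set in replicate 2, 41.3 (98.8 percentile). In replicate 3 the region reached 96.1 (98.4 percentile). Among peaks at listed gene starts, it stood at the 96.4 percentile in replicate 2 and at the 90.4 in replicate 3. Little else was marked. The 52.8-kb gene body held no further region of both libraries, and the 1 distal region, upstream at -7.43 kb from the start, had 8.81 in replicate 2 and 11.6 in replicate 3. The start region also overlaps the lncRNA gene *Gm46295*, so the acetylation there cannot be given to *Stat3* alone.

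*Socs3*, the feedback inhibitor induced by STAT3, had the broadest start peak of the set in replicate 3, 2050 bp (99.0 percentile of widths). In replicate 2 the start peak of *Il6st* was broader, 1030 bp against 862 bp for *Socs3*. Fold enrichment at the *Socs3* start was 26.4 in replicate 2 (91.8 percentile) and 72.6 in replicate 3 (96.2 percentile). Past the 3′ end lay 2 more regions of both libraries. The first, 5.79 kb from the start at chr11:117962904-117964017, had 17.6 and 50.4, and the second, 13.6 kb away, had 8.13 and 24.1. The gene is only 4.26 kb long. Peaks of replicate 3 covered 19.0% of its window and those of replicate 2 covered 6.67%, the highest shares among the 10 genes. Per 10 kb, *Socs3* had 1.24 regions of both libraries, at the 97.5 percentile of protein-coding genes. Its promoter is shown because it was the 1 window of the set with a match to the STAT motif TTCNNNGAA, chr11:117969317-117969616 on the minus strand.
*Socs3*: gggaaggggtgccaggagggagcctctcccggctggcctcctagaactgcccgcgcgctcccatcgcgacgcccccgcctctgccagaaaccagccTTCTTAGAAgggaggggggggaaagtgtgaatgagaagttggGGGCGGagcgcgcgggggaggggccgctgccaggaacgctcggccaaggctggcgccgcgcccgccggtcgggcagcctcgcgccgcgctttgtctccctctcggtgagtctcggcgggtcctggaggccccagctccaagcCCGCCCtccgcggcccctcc
The match, TTCTTAGAA, begins at position -154, and the other capitals mark GC boxes. The STAT motif was found in 8.30% of all promoters. In the windows of *Il6ra*, *Il6st*, *Lifr*, *Osmr*, *Jak1*, *Jak2*, *Stat3*, and *Il1r1*, these letters did not occur, which says nothing about sites elsewhere. *Jak1* held a CRE motif, TGACGTCA, found in 1.79% of promoters. Of the 12 member windows, 8 held a GC box and none held TATAAA, the TATA motif, or TTGCGCAA, a C/EBP motif, which occurred in 13.6% and 0.183% of all promoters.

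**Figure D3:**
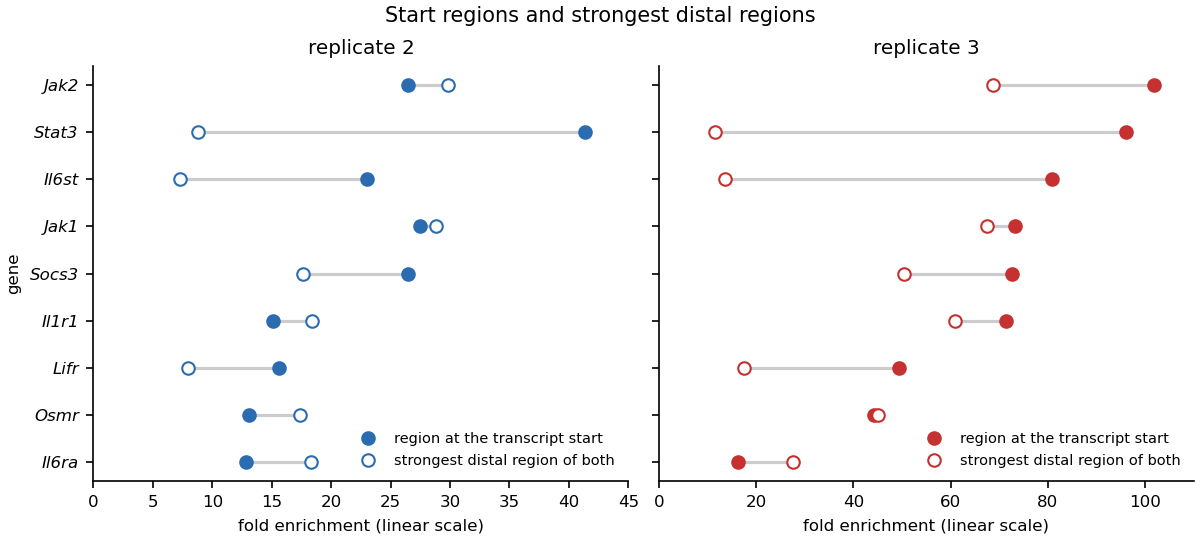
Fold enrichment, on a linear x axis from 0, of the region at the transcript start (filled points) and of the strongest distal region of both libraries (open points) for the 9 genes with regions, replicate 2 in the left panel and replicate 3 in the right. *Il6ra* and *Osmr* are the genes whose open point lies to the right of the filled one in both panels, and *Jak2* has the highest start of replicate 3, at 101.9.

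Set side by side, the median of the 9 marked starts was 23.0 in replicate 2 and 72.6 in replicate 3, at median percentiles of 87.6 and 96.2 of the lists. Start peaks are stronger than most peaks of a list. Against start peaks only, *Il6st*, *Jak1*, *Jak2*, and *Socs3* stood at the 70.0, 80.8, 78.7, and 78.7 percentiles in replicate 2. In replicate 3 they stood at 83.5, 78.8, 92.5, and 78.6. *Stat3*, *Jak1*, *Jak2*, *Socs3*, and *Il6st* took the first 5 places in both libraries, *Lifr* and *Il1r1* came next in either order, and *Osmr* and *Il6ra* were last. Within the first 5 the order changed from *Stat3*, *Jak1*, *Jak2* level with *Socs3*, and *Il6st* in replicate 2 to *Jak2*, *Stat3*, *Il6st*, *Jak1*, and *Socs3* in replicate 3. Of the genes next to each other in the order of replicate 3, *Jak2* and *Stat3*, *Il6st* and *Jak1*, and *Il1r1* and *Lifr* stood the other way around in replicate 2, whereas *Osmr* stood above *Il6ra* and *Jak1* above *Socs3* in both libraries. With 1 library for each of 2 replicates and no second condition, no test of these levels was made.

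By location, the 41 regions of both libraries comprised 9 at listed starts, 21 elsewhere in gene bodies, and 11 in the flanks. The 32 regions away from the starts were weaker, with medians of 8.03 in replicate 2 and 16.96 in replicate 3. They were also narrower, with a median peak width in replicate 3 of 501 bp, compared with 1293 bp at the starts. A fold enrichment of at least 40 in replicate 3 was reached by 6 of the 32, at *Osmr*, *Jak1*, *Jak2*, *Socs3*, and *Il1r1*. In replicate 2, the strongest distal region exceeded the start in 5 genes, and in replicate 3 in 2. The members were long genes, with a median length of 57.0 kb against 17.2 kb for all protein-coding genes, and length sets how many regions a gene can hold. Their median was 3 regions of both libraries against 1, or 0.423 per 10 kb of window against 0.159.

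**Figure D4:**
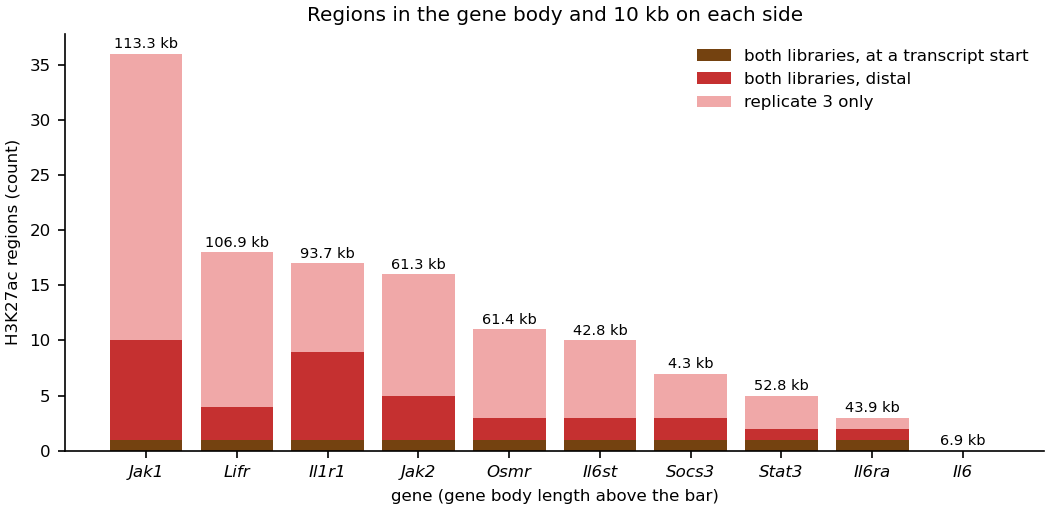
Number of H3K27ac regions in the gene body and 10 kb on either side of each member (y axis, a count), stacked as regions of both libraries at a transcript start, distal regions of both libraries, and regions of replicate 3 only, with the length of the gene body above each bar. *Jak1* has the most, 36 regions, and *Il6* has none.

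The 82 regions that replicate 3 alone had were mostly weak, with a median fold enrichment of 6.01 and a range of 3.25 to 22.8. Of the 123 peaks of replicate 3 at the members, 41, or 33.3% (95% Wilson interval over peaks, 25.6% to 42.1%), overlapped a peak of replicate 2, compared with 37.7% of all peaks of replicate 3. The interval treats peaks as independent, which peaks of 1 gene are not, and covers counting error only. The share followed strength. It was 3.13% of 64 member peaks with a fold enrichment under 8, 41.4% of 29 peaks from 8 to 16, and 90.0% of 30 peaks of 16 or more. Over all peaks, the same classes gave 4.45%, 30.7%, and 92.4%. Where both libraries had a region, Spearman's rho between their fold enrichments was 0.888 over 41 member regions and 0.843 over all 24199 shared regions, given as a description.

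The genes around the members were counted in lists by role. For reading these counts, 44.1% of all protein-coding genes had a region of both libraries at a gene end. Of those with a listed start, 45.9% had one there. Among 10 ligand genes of the IL-6 family, 1 had a region of both libraries at a gene end, *Clcf1*, and of the 7 with a listed start none had one there. A distal region of both libraries was present in 7 of the 10, beside 39.3% of all protein-coding genes. *Il6*, *Cntf*, and *Il31* had no peak of replicate 3 in their windows. Start peaks of replicate 3 alone were present at *Il11* (8.47) and *Ctf1* (18.0). Among 9 receptor genes, 6 had a region of both libraries at a gene end, and of 7 with a listed start 5 had one there. Besides the 4 members, this was *Il11ra1*, the receptor for interleukin-11, at 8.13 in replicate 2 and 22.4 in replicate 3. *Cntfr* and *Il31ra* had none at the start.

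Of the 4 Janus kinase genes, 3 had a start region of both libraries, *Jak1*, *Jak2*, and *Tyk2*, the last at 21.7 in replicate 2 and 34.1 in replicate 3. *Jak3*, the kinase of lymphoid cells, had a start peak of replicate 3 only, at 16.3. Of 6 STAT genes with a listed start, 4 had a region of both libraries there. *Stat2* stood at 32.5 in replicate 2 and 77.2 in replicate 3, whereas *Stat5a* and *Stat6* were lower, at 10.2 and 7.46 in replicate 2. *Stat4* had no start peak, and *Stat5b* had one of replicate 3 only, at 15.0. Of 16 feedback and inhibitor genes, 15 had a region of both libraries at a gene end, all but *Ptpn6*, the phosphatase of blood cells. Examples were *Cish*, at 14.5 in replicate 2 and 80.1 in replicate 3, and *Socs1*, at 16.9 and 49.2.

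Of 20 genes known as STAT3 targets, 15 had a region of both libraries at a gene end, and 14 of the 16 with a listed start had one there. *Pim1*, a survival kinase, stood at 39.9 and 79.8, *Junb* at 34.6 and 71.0, and *Icam1*, the endothelial adhesion molecule, at 10.4 and 27.1. *Timp1* had a start peak of replicate 3 only, and *Batf* had no start peak. These genes answer to many factors, and the list names no activity of STAT3 here. Among 14 acute phase genes, which hepatocytes switch on in response to IL-6, 2 had a region of both libraries at a gene end, *Lbp* and *Serpina3n*, and none of the 11 with a listed start had one there. In 7 of the 14, replicate 3 had no peak in the window, beside 30.1% of all protein-coding genes.

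In the IL-1 pathway, 11 of 16 genes had a start region of both libraries, beside 45.9% of protein-coding genes with a listed start. The strongest were the kinase gene *Irak4*, at 36.5 in replicate 2 and 102.9 in replicate 3, and the adaptor gene *Myd88*, at 31.1 and 100.3. The ligand genes differed. *Il1a* had a start region, at 16.3 and 47.5, whereas *Il1b* had no peak at its start and *Il1rn*, the receptor antagonist, had none in its window. On chromosome 1, *Il1r1* and *Il1rl2* had start regions of both libraries. *Il1r2*, the decoy receptor, had a start peak of replicate 3 only, at 10.3, and 1 distal region of both libraries. *Il1rl1* and *Il18r1* had no peak in their windows. Counts for these lists carry no test, and the lists share members with the 10 genes.

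**Figure D5:**
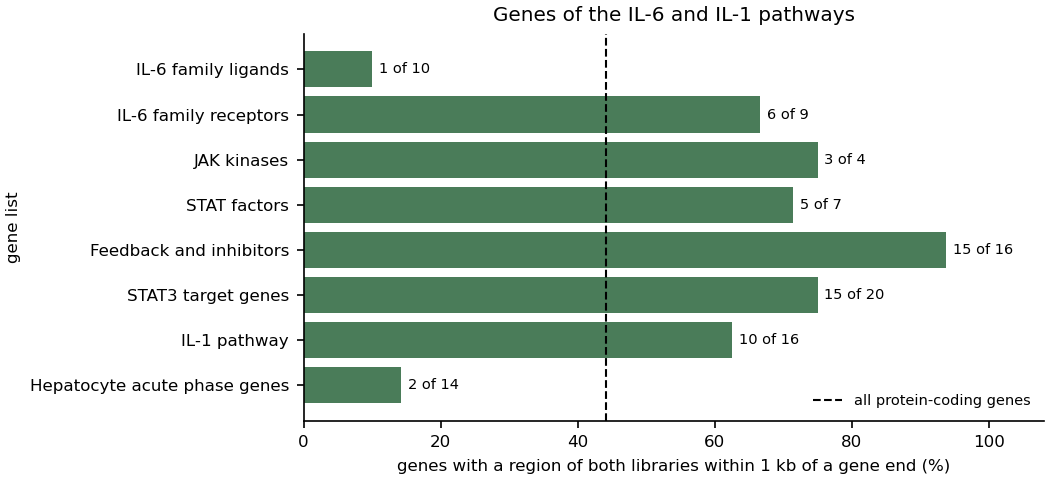
Share of the genes in each list, in percent, that had a region of both libraries at a gene end, with the counts beside the bars and the 44.1% of all protein-coding genes as a dashed line. Feedback genes stand highest, with 15 of 16, and ligand genes and acute phase genes stand below the line, with 1 of 10 and 2 of 14.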

How the data were processed

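TAF–ChIP-Seq of H3K27ac was done on LSECs fixed with 1% formaldehyde; the labels describe sonicated chromatin and a ThruPLEX library kit. The submitters' processing notes name cutadapt 0.4.4, BWA 0.7.17, Picard 1.67, MACS2 2.0.10, and bedtools 2.27.1 on mm10, with no roles given. The authors called peaks per library, not on pooled libraries, and whether the inputs were used is not given in the sources used here. The deposited lists hold each peak's position and summit, its fold enrichment as a ratio over background, the −log10 of its p-value and q-value, and a score derived from the latter. The largest deposited q-values were 0.00907 (replicate 2) and 0.00981 (replicate 3). The authors gave no read counts, so depth is unknown and a deeper library can give more peaks.

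Peaks were intersected with gene bodies of the RefSeq table of GRCm38.p6, whose coordinates mm10 shares, in Python 3.11.15 with pandas 2.3.3 and numpy 2.4.6. Listed transcript starts and promoter windows, 250 bases before to 50 after the start, came from RefSeq. Starts were listed for 17491 of 21883 protein-coding genes. Positions are counted from 1. Peaks of both libraries that overlapped by at least 1 bp were merged into regions, with the highest fold enrichment kept per library. The overlap script was tested on simulated peaks. The members and gene lists were chosen with earlier results of these data known, and the text names the 10 members, genes of those lists, marker genes, and neighboring genes. No test was made. The input libraries were not used here on their own. Alternatives were a q-value of 1e-05, equal numbers of peaks, reciprocal overlap of 50%, other distances and flanks, omission of other genes' ends, other rankings, and omission of each replicate.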

Additional observations from a re-analysis of the deposited data

How the results depend on the processing

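With 6 results and 41 alternatives, 32 values stayed within the margin set for their kind and 9 moved past it. The margin was 1.5 times for a count, the 95% Wilson interval for a share, and the SD between the libraries for a median percentile. When peaks had to overlap each other by 50%, genes with a region of both libraries at a gene end fell from 7 to 2. The distal regions fell from 34 to 20, and the share of replicate 3 peaks shared with replicate 2 from 33.3% to 17.9%. In the members' regions of both libraries, median peak widths in replicates 2 and 3 were 615 and 1293 bp at the starts. Away from the starts they were 275 and 501 bp, and over the whole lists 322 and 345 bp. The part of width in these falls was not tested. A flank of 50 kb gave 65 distal regions, and without a flank 5 genes had a distal region in place of 9. When the longer list was shortened to its strongest peaks, as many as in the other list, the share was 78.0%. Ranked only among peaks near gene ends, the median percentile of the starts was 76.8 in replicate 2 and 86.5 in replicate 3. Leaving out each replicate in turn gave 7 to 8 genes at a gene end, 33 to 112 distal regions (the higher without replicate 2), and 9 genes with a distal region throughout; the share needs both libraries. The use of listed transcript starts was chosen after seeing the data and gave 9 genes, 32 distal regions, and 9 genes with one. Apart from these constructions, the cause was not examined. No paired analysis was possible because the series has 1 condition and no test. Depth was unknown, so the lack of a peak in replicate 2 does not show lack of the mark.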

Other observations

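The intergenic stretches beside the members held further acetylated regions, partly outside the 10-kb flanks. Between *Il1r1* and *Il1r2*, 97.2 kb apart, there were 8 regions, 5 of both libraries, and the strongest reached 25.8 in replicate 2 and 58.2 in replicate 3. In the 15.96 kb from *Socs3* to *Pgs1* there were 5 regions, 2 of both libraries, with up to 18.3 in replicate 2 and 38.9 in replicate 3. In the 151 kb from *Jak1* toward *Ak4*, 11 regions were found, of which 2 were of both libraries, with up to 11.52 in replicate 2 and 38.1 in replicate 3. By contrast, no region lay wholly inside the 26.3 kb between *Il6ra* and *Atp8b2*, the 13.2 kb between *Osmr* and *Rictor*, or the 8.39 kb between *Il1r1* and *Il1rl2*. The region at the *Il1rl2* start begins in this last stretch and reaches into that gene. Position does not tell which gene, if any, such a region serves.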
